A study of Mus musculus with 24 samples.

Results

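A set of 9 genes that basophils and mast cells use were followed through the CD11b+ cell arrays: Mcpt8, Prss34, Cpa3, Fcer1a, Ms4a2, Cd200r3, Gata2, Kit, and Il4. They were chosen by name, as genes known to be used by these cells, with earlier results of these data known. An array probe was taken for each through its RefSeq transcript. All 9 were found, each with 1 probe, among 32451 genes or transcripts on the array. Basophils and mast cells are rare granulocytes that bind IgE through the high-affinity receptor FceRI and release histamine, proteases, and cytokines when the receptor is cross-linked. Basophils mature in the bone marrow and circulate, whereas mast cells finish their maturation in tissues. Both depend on the transcription factor GATA2, and both make histamine by histidine decarboxylase, the enzyme that HDC-KO mice lack.

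Total RNA was measured on 1-colour Agilent mouse arrays, in CD11b+ cells from spleen and bone marrow of male wild-type (WT), HDC-KO, and STAT6-KO mice on the Balb/C background, aged 10 weeks per the methods of the study. HDC-KO mice lack histidine decarboxylase and STAT6-KO mice lack STAT6, a transcription factor that acts downstream of the IL-4 receptor, and the sources give no tissue restriction for either knockout. In each genotype, control mice were set beside mice at 1, 2, and 4 weeks after myocardial infarction (MI), so that control mice of the knockouts carried the same deletion as the MI mice. Each array held cells pooled from 5 mice, each condition had 1 array, and 22 of the 24 arrays were complete, so that the HDC-KO control in spleen and the STAT6-KO array of MI 1 week in bone marrow were missing. A level below is the log2 signal of the probe minus the 75th percentile of its array, so a level of 0 lies at that percentile. Levels were compared between arrays and not between genes. In cells prepared in bulk, fewer cells of a type and less RNA per cell cannot be told apart.

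The arrays of 1 genotype and 1 tissue shared a scan time, taken here to mark a slide, with the time points always at the same positions. Genotype and tissue therefore cannot be told apart from slide, nor time after MI from position. The WT MI 1 week arrays had the lowest share of spots well above background, 70.4% in spleen and 71.3% in bone marrow, against 75.1 to 79.8% on the other complete arrays. Values without them are given beside the genotype and time comparisons. Hdc lay between 1.67 and 2.78 in HDC-KO and between 4.32 and 5.51 in WT. The sources used here do not give where the Hdc and Stat6 probes lie relative to the deletions. Stat6 lay between 1.76 and 2.44 in STAT6-KO and between 2.38 and 3.70 in WT, so that 1 STAT6-KO spleen array overlapped the WT spleen range. Cells labelled as CD11b+ also carried RNA of other lineages. The 5 T cell markers and the 4 B cell markers were well above background on every complete array.

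The start site windows of the genes coding for secreted enzymes and FceRI chains are printed here, and GATA2 is among the genes followed. Pearson r between these genes was 0.70 to 0.93 over all 22 arrays, which include the tissue difference. Within spleen it ranged from 0.37 (Prss34 and Ms4a2) to 0.94 (Cpa3 and Ms4a2). RefSeq promoter windows of 300 bases, 250 before and 50 after the start site, were on hand for all 9 genes (build GRCm38.p6). The GATA motif was searched on both strands as the letters GATA with A or T before them and A or G after them. At least 1 match was found in a window of 6 of the 9 genes, which have 12 windows among them, and 29.8% of all 32851 windows held one. The first is a count of genes and the second a share of windows, so they are not like measures. The windows below are in the direction of the gene, with matches in capitals. Mcpt8 lay at chr14:56085148-56085447 on the minus strand, Prss34 at chr17:25298144-25298443 on the plus strand, and Cpa3 at chr3:20242132-20242431, Fcer1a at chr1:173227180-173227479, and Ms4a2 at chr19:11623670-11623969 on the minus strand.
Mcpt8: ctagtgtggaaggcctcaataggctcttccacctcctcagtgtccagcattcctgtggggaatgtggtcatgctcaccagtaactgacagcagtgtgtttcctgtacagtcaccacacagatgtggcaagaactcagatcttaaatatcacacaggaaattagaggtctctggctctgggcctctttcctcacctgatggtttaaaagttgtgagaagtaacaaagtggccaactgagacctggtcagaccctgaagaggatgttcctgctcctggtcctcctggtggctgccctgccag
Prss34: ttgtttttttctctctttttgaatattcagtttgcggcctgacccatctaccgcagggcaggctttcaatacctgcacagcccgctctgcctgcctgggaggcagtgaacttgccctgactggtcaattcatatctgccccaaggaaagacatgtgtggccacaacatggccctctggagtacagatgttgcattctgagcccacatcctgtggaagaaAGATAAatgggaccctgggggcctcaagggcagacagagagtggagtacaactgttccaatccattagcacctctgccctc
Cpa3: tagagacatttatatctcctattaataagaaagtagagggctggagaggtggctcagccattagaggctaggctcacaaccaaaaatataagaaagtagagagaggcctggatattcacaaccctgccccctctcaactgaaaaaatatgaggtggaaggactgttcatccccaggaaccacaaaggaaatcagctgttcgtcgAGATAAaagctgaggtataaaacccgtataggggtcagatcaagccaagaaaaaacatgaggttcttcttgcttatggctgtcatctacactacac
Fcer1a: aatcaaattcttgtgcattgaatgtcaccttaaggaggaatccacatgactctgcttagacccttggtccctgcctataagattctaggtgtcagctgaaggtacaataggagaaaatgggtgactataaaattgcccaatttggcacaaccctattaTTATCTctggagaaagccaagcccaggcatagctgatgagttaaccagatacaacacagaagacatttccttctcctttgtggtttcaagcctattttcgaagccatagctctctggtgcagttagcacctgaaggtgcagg
Ms4a2: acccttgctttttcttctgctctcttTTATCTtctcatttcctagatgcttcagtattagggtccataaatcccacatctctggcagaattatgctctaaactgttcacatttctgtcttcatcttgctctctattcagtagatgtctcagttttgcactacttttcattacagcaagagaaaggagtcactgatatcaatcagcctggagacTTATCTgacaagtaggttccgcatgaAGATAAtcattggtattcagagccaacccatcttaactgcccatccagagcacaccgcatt
Prss34 held 1 match, beginning 31 bases before its start site, and Cpa3 held 1, beginning 46 bases before. Fcer1a held 1 match, 92 bases before, and Ms4a2 held 3, which began 224, 37, and 11 bases before the start site. The Mcpt8 window held none of these letters. Cd200r3 held 3 matches and each of the 2 windows of Il4 held 1, whereas the windows of Gata2 and Kit held none. The letters TTC and GAA with 4 bases between them, a spacing that STAT6 is known to bind, were found in 1 window, upstream of Il4, and in 6.95% of all windows. A match is a description of the letters and not of binding.

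Between spleen and bone marrow, most of the 9 genes differed. The proteases, the FceRI chains, and Gata2 were lower in spleen, whereas Kit and Il4 were higher there. In 10 pairs of arrays of the same genotype and time point, 8 of the 9 genes passed an adjusted p of 0.05 by limma, of which 6 were lower and 2 higher in spleen. Over all 27659 genes tested 54.5% passed, 32.1% lower and 22.4% higher, so most genes on these arrays differed between the tissues. The median difference was -0.99 for the 9 genes and -0.17 for all genes.

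Prss34 codes for mast cell protease 11, a serine protease made by basophils. Its levels in spleen were -3.21, -1.49, -0.82, and -1.68 in WT control and at MI 1, 2, and 4 weeks. They were -3.13, -2.73, and -2.86 in HDC-KO at MI 1, 2, and 4 weeks, and -3.70, -2.40, -2.59, and -4.02 in the 4 STAT6-KO arrays in the same order. No spleen array reached the 75th percentile. In bone marrow the WT levels were 0.61, -0.54, 0.60, and 1.22. There the 4 HDC-KO levels were 1.18, 0.21, 1.31, and 1.36, and STAT6-KO had -0.79, 0.35, and 1.18 in control and at MI 2 and 4 weeks. Every spleen array lay below every bone marrow array, and this was the one gene of the 9 whose arrays did not overlap between the tissues, against 13.2% of all genes and 7.3% in that direction. The difference was -3.18 (SE 0.36, adjusted p = 1.72e-05 by limma), and spleen was lower in 10 of 10 pairs, a 9.04-fold lower signal (exact sign-flip p = 0.00195, the smallest that 10 pairs allow). The sign-flip test takes the pairs as independent, whereas the pairs of a genotype shared their slides.

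Mcpt8 codes for mast cell protease 8, a granule protease used to mark mouse basophils. Its spleen levels were -1.72, -0.91, -0.09, and 0.09 in WT, -2.64, -1.25, and -0.93 in HDC-KO, and -2.83, -2.29, -1.95, and -3.75 in STAT6-KO. In bone marrow they were 0.85, -0.98, 0.68, and 1.31 in WT, 1.20, -0.10, 0.97, and 1.03 in HDC-KO, and -0.43, 0.25, and 0.35 in STAT6-KO. Spleen was lower in 9 of 10 pairs, and in the WT MI 1 week pair the tissues differed by 0.07. The difference was -1.99 (SE 0.32, adjusted p = 0.000269, limma). Cpa3, which codes for carboxypeptidase A3 of mast cell and basophil granules, ranged from -3.25 to -0.77 in spleen (median -2.06) and from -2.05 to 0.22 in bone marrow (median -0.13). The difference was -1.46 (SE 0.20, adjusted p = 7.36e-05, limma), with spleen lower in 10 of 10 pairs although the ranges overlapped.

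The 2 chains of FceRI that basophils and mast cells add to the common gamma chain were both lower in spleen. Fcer1a, the IgE-binding alpha chain, ranged from -4.92 to -2.02 in spleen (median -3.57) and from -3.60 to -1.51 in bone marrow (median -2.14), a difference of -0.99 (SE 0.20, adjusted p = 0.00131, limma). Ms4a2, the beta chain that amplifies the signal, ranged from -8.38 to -3.99 in spleen (median -5.94) and from -6.07 to -3.95 in bone marrow (median -4.66). Its difference was -1.11 (SE 0.27, adjusted p = 0.00449, limma). Ms4a2 was dim, and was not well above background on 2 of 11 spleen arrays and 1 of 11 bone marrow arrays. Gata2 ranged from -3.85 to -1.49 in spleen (median -2.95) and from -3.24 to -0.89 in bone marrow (median -1.57), a difference of -0.91 (SE 0.17, adjusted p = 0.000852, limma), lower in 10 of 10 pairs. Cd200r3, an activating receptor of basophils and mast cells, had medians of -3.81 in spleen and -3.80 in bone marrow, and its difference of 0.18 did not pass (SE 0.17, adjusted p = 0.396, limma).

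Kit codes for the receptor of stem cell factor, which mast cells and blood progenitors need. It ranged from -0.95 to 0.78 in spleen (median -0.09) and from -2.06 to -0.55 in bone marrow (median -0.997), and was higher in spleen in 10 of 10 pairs by 1.08 (SE 0.16, adjusted p = 0.00011, limma). Il4, a cytokine that basophils, mast cells, and T helper cells release, ranged from -3.22 to -0.56 in spleen (median -1.94) and from -3.65 to -2.06 in bone marrow (median -3.08). It was higher in spleen in 9 of 10 pairs by 1.08 (SE 0.22, adjusted p = 0.00156, limma). The plot of paired differences shows both genes above 0 and the proteases below it.

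**Figure D1:**
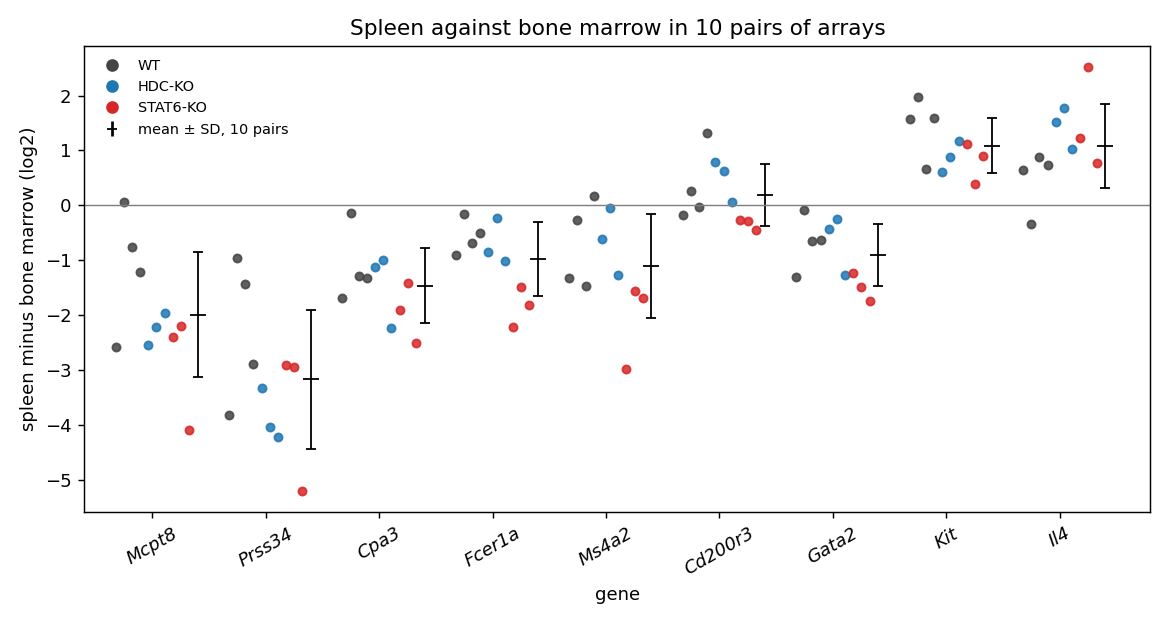
Spleen minus bone marrow on the log2 scale for each gene, with 1 point for each of the 10 pairs of arrays, coloured by genotype, and the mean with SD over pairs at the right of each gene. Prss34 lay between -5.20 and -0.96 and Kit between 0.39 and 1.97, while Cd200r3 lay on both sides of 0.

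The tissue difference of Fcer1a was -0.56 ± 0.32 (SD, n = 4 pairs) in WT, -0.70 ± 0.42 (n = 3) in HDC-KO, and -1.84 ± 0.37 (n = 3) in STAT6-KO. That of Gata2 was -0.67 ± 0.50, -0.65 ± 0.54, and -1.49 ± 0.25 in the same order. Cd200r3 was lower in spleen in all 3 STAT6-KO pairs and higher in all 3 HDC-KO pairs. Tests of whether the genotype effects differed between tissues are given with the knockouts.

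Other lineages differed between the tissues beside these genes. T cell markers were higher in spleen for 4 of 5, B cell markers for 4 of 4, monocyte and macrophage markers for 4 of 4, and neutrophil markers were lower for 5 of 5. The summed T cell signal, with the 75th percentile of an array as 1, ranged from 3.86 to 17.0 over the spleen arrays and from 2.27 to 4.98 over those of bone marrow. Itgam, which codes for CD11b itself, differed by -1.47 between spleen and bone marrow (adjusted p = 5.42e-06, limma). The part of these markers in the tissue differences was not tested. Of the genes that mark mature mast cells, Tpsg1 was not well above background on any of 11 spleen arrays. Mrgprb2, a receptor of connective tissue mast cells, was well above background on 1 of them. Cma1 went the other way and was higher in spleen by 1.52 (adjusted p = 0.0105, limma), though it did not enter the bone marrow fits. Mcpt1 and Mcpt2 did not pass, at 0.55 and 0.10. Mcpt4 and Tpsb2 were well above background on all 22 arrays.

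The wider pathways did not share a direction between tissues. Of 12 genes of FceRI signalling, 5 were higher and 4 lower in spleen. Lat, an adaptor that T cells use too, had the largest difference in this list at 3.01, and Fcer1g, the common gamma chain, was lower, with a difference of -0.83 (adjusted p = 0.000194, limma). Of 26 further basophil and mast cell genes, 7 were higher and 12 lower, with a median of -0.25. Slc18a2, the vesicular transporter that loads histamine, was at -1.62 and Hdc at -0.47 (adjusted p = 0.00768, limma), whereas Hpgds, a prostaglandin D synthase, was at 2.51. The study reports that most GFP-positive cells of HDC-EGFP mice carried CD11b, with granulocytic and monocytic cells among them. Hdc therefore does not single out basophils and mast cells in these preparations. Rgs13, a regulator of G protein signalling also made by germinal centre B cells, was at 4.49 and was well above background on 7 of 11 bone marrow arrays. Fcer1g, Slc18a2, and Hdc were named for their roles after their values were seen. Of 8 genes tested of the IL-4 axis, 3 were higher and 2 lower. Of 9 genes around Kit, 1 was higher (Flt3) and 3 were lower (Cd34, Myb, and Tal1).

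In STAT6-KO spleen-derived cells, levels of the proteases, FceRI chains, Gata2, and Kit were mostly below WT and that of Il4 was above it, but none of the 9 genes passed an adjusted p of 0.05 by limma, against 1.95% of all 26472 genes tested. At an unadjusted p under 0.05, 7 of the 9 were lower and 1 higher, against 13.8% and 9.12% of all genes. The methods' t-test with its fold threshold, before adjustment, held for Mcpt8 and Il4, against 2.99% of all genes, and for neither after it. The median difference was -0.90 for the 9 genes and -0.06 for all genes. The count at an unadjusted p was 7 or 8 with the other scalings and 5 without the control time point. It was 3 with background correction by normexp (2 lower and 1 higher), where the median of the 9 was -0.24 and that of all genes 0.27. No share of all genes is given for these alternative counts, so they cannot be set against the background.

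Mcpt8 had the lowest STAT6-KO levels relative to WT. All 4 STAT6-KO spleen arrays, from -3.75 to -1.95, lay below all 4 WT arrays, from -1.72 to 0.09. No other of the 9 genes lay apart in this way, against 5.64% of all genes and 3.4% in that direction. The difference was -2.05 (SE 0.48, adjusted p = 0.0698, limma), which is 4.14-fold lower over the pairs, and the pairs ranged from -3.85 to -1.104. An exact sign-flip test over 4 pairs gave p = 0.125, the smallest it allows, so it cannot reach 0.05. Prss34 was lower in 4 of 4 pairs, with a difference of -1.38 (SE 0.33, adjusted p = 0.0719, limma). Without the control time point it passed, at -1.67 with an adjusted p of 0.0492 by limma, and the share of all genes in that fit is not given.

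Fcer1a levels in spleen were -3.56, -3.76, -2.63, and -2.02 in WT and -4.92, -4.09, -3.57, and -3.96 in STAT6-KO. STAT6-KO lay below WT at every time point, while the ranges overlapped, and the difference was -1.14 (SE 0.28, adjusted p = 0.0719, limma) and -0.11 with normexp. Gata2 differed by -0.90 (SE 0.27, adjusted p = 0.108, limma), -0.24 with normexp, and was below WT at 4 of 4 time points. Kit differed by -0.60 and Cpa3 by -0.86, neither passing by limma (adjusted p = 0.156 and 0.155). Ms4a2 differed by -1.14, which turned to 0.55 with normexp, and its lowest level, -8.38 in the STAT6-KO control, was not well above background. Cd200r3 lay on both sides of WT, at -0.22, and turned to 0.45 with normexp.

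Markers of other cells differed beside these genes in STAT6-KO spleen, though none of those named next passed by limma. The summed signal of 4 progenitor markers ranged from 3.13 to 4.53 in STAT6-KO spleen and from 4.79 to 5.72 in WT, without overlap. Within that list Myb, a transcription factor of blood progenitors, differed by -1.04 (adjusted p = 0.0916, limma), while the median of the list was -0.01 and 2 of the 4 differences were positive. The summed signal of 4 NK cell markers ranged from 3.53 to 19.5 in STAT6-KO and from 9.18 to 29.4 in WT. All 4 NK cell differences were negative, with a median of -0.70, and Gzma, a granzyme, was at -1.16 (adjusted p = 0.0552, limma). All 5 neutrophil differences were negative too, with a median of -0.58, and Elane, an elastase of immature neutrophils, was at -1.01 (adjusted p = 0.114, limma). The part of these cells in the levels of the 9 genes was not tested.

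Il4 went the other way in spleen. Its levels were -2.43, -3.22, -2.76, and -2.11 in WT and -0.84, -2.17, -0.56, and -1.94 in STAT6-KO, above WT at all 4 time points with overlapping ranges. The difference was 1.26 (SE 0.31, adjusted p = 0.0769, limma), and the pairs ranged from 0.17 to 2.20. In HDC-KO spleen Il4 was at -1.83, -1.67, and -1.81, all above the WT arrays, against 8.3% of all genes without overlap and 5.61% in that direction. The HDC-KO difference was 0.99 (SE 0.35, adjusted p = 0.151, limma). Both comparisons use the same WT arrays. Beside these values, T cell markers did not pass in STAT6-KO spleen (median 0.38), and in HDC-KO spleen 5 of 5 were positive with a median of 0.93, of which 1 passed (Cd5). The summed T cell signal ranged from 3.86 to 8.68 in WT spleen, from 4.64 to 17.0 in HDC-KO, and from 4.70 to 11.1 in STAT6-KO, and its part in the Il4 values was not tested.

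In HDC-KO spleen-derived cells no gene of the 9 passed by limma, against 2.8% of all genes. At an unadjusted p under 0.05, 2 of 9 did, Prss34 below and Il4 above WT, against 22.6% of all genes, and by the methods' t-test 0 of 9, against 3.15%. The median difference was -0.05, and 0.06 over all genes. Prss34 lay below WT at all 3 time points, with a difference of -1.43 (SE 0.37, adjusted p = 0.0826, limma), though the WT control array at -3.21 was the lowest of both groups. Without the control time point it passed at -1.58 (adjusted p = 0.0496, limma). The share of all genes in that fit is not given. With the arrays of HDC-KO and WT fitted alone, Prss34 passed at -1.58 (adjusted p = 0.0161, limma) and so did Mcpt8 at -1.31 (adjusted p = 0.0223, limma), both lower. Over all genes, that fit made more calls than the fit over 3 genotypes, and both counts are given at the end. Mcpt8 was at -1.15 in the fit over 3 genotypes (SE 0.54, adjusted p = 0.256, limma). Cpa3, Fcer1a, Ms4a2, Gata2, and Kit had pairs on both sides of 0, with differences between -0.20 and 0.16, and Cd200r3 had them too at 0.39. That of Ms4a2, 0.09, turned to -0.07 with scaling to the median and to -0.18 with quantile normalization. Without the WT MI 1 week array, 1 of 9 had an unadjusted p under 0.05 (that count was 8 of 9 for STAT6-KO). The shares of all genes in those fits are not given.

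**Figure D2:**
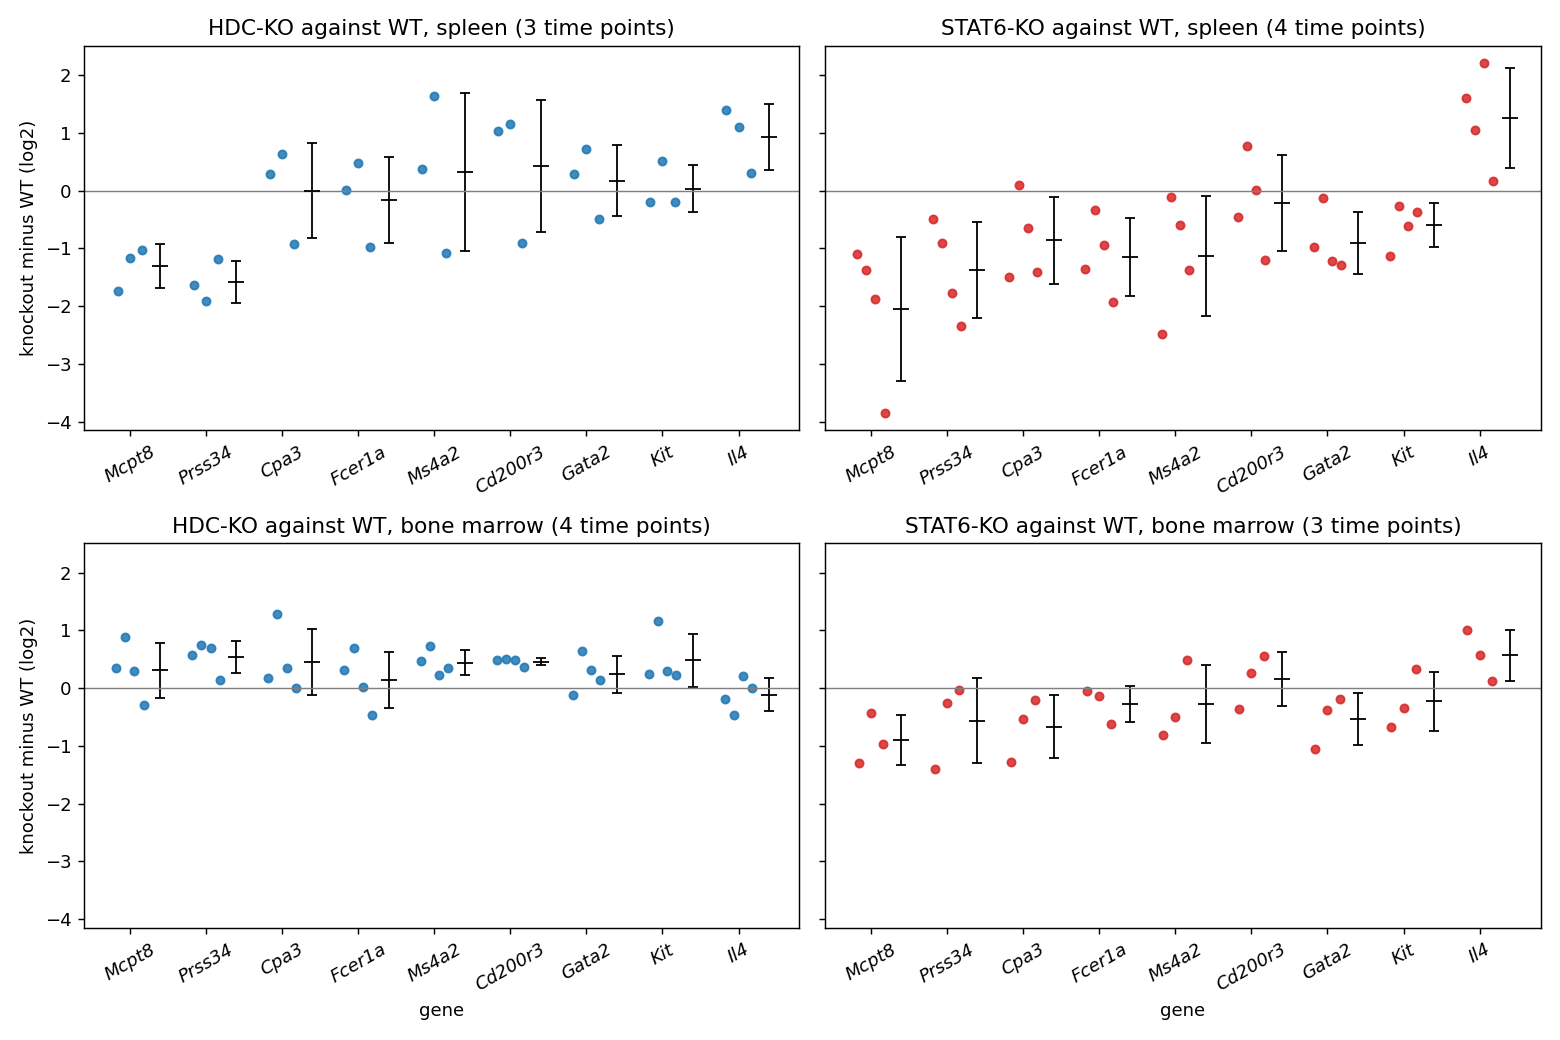
Knockout minus WT on the log2 scale for each gene in spleen (top) and bone marrow (bottom), with 1 point per time point in time order and the mean with SD over time points at the right of each gene. Mcpt8 and Prss34 lay below 0 at every time point in both knockouts in spleen, and Il4 above it.

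In bone marrow no gene of the 9 passed by limma in either knockout, against 0.443% of all genes (HDC-KO) and 4.61% (STAT6-KO). At an unadjusted p under 0.05, 1 of 9 did in each, against 21.2% and 22.4% of all genes, and none by the methods' t-test, against 3.68% and 4.11%. In HDC-KO this gene was Cd200r3, at -3.41, -4.21, -3.31, and -3.79 against -3.90, -4.71, -3.80, and -4.15 in WT. HDC-KO lay above WT at every time point by 0.36 to 0.50, with a difference of 0.46 (SE 0.18, adjusted p = 0.215, limma) that turned to -0.01 with normexp. The other 8 HDC-KO differences lay between -0.11 (Il4) and 0.54 (Prss34), of which those of Fcer1a, Ms4a2, and Gata2 (0.14, 0.44, and 0.24) turned negative with normexp. The HDC-KO median over the 9 genes was 0.44 (all genes -0.01), and it was 0.18 without the WT MI 1 week array and -0.01 with normexp. In STAT6-KO bone marrow Mcpt8 differed by -0.80 (SE 0.26, adjusted p = 0.129, limma) and lay below WT in 3 of 3 pairs. The other 8 STAT6-KO differences lay between -0.53 (Cpa3) and 0.51 (Il4), and that of Cd200r3, 0.17, turned to -0.05 with normexp. The median of the 9 was -0.23 (all genes 0.07). No gene of the 9 lay apart from WT on all bone marrow arrays, against 8.03% (HDC-KO) and 14% (STAT6-KO) of all genes. Without the WT MI 1 week array, the count at an unadjusted p under 0.05 was 0 for HDC-KO and 4 for STAT6-KO, and the shares of all genes are not given.

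The knockout effects were compared between tissues by the genotype by tissue term of limma. No gene of the 9 passed for HDC-KO or STAT6-KO, against 0.826% and 5.21% of all genes, and 3 and 1 of 9 had an unadjusted p under 0.05, against 21% and 22%. The methods' t-test was not run for it. For HDC-KO, Prss34 was below WT at 3 of 3 spleen time points and above it at 4 of 4 in bone marrow, and the effects differed by -1.97 (SE 0.49, adjusted p = 0.0665, limma). It passed without the control time point, where the share of all genes is not given. Il4 differed by 1.097 between tissues (adjusted p = 0.168, limma). For STAT6-KO the gene with an unadjusted p under 0.05 was Fcer1a, at -0.96 (adjusted p = 0.157, limma), and Mcpt8 was at -1.25 (adjusted p = 0.264, limma). Over the 9 genes the differences between tissues ranged from -1.97 to 1.097 for HDC-KO and from -1.25 to 0.74 for STAT6-KO. The STAT6-KO median was -0.49 and turned to 0.14 with normexp.

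Related genes in the knockouts are given by their counts. Beyond the 9 genes, 1 of 12 FceRI signalling genes was higher in spleen in each knockout, and it was Lat both times (1.27 in HDC-KO and 0.86 in STAT6-KO), in comparisons that share the WT arrays. Of the further basophil and mast cell genes tested, 26 in spleen and 25 in bone marrow, Hdc alone passed in HDC-KO in each tissue and none passed in STAT6-KO. In STAT6-KO bone marrow, 2 genes of the IL-4 axis were lower, Stat6 itself and Il2rg, the common gamma chain of cytokine receptors (-1.35, adjusted p = 0.0169, limma). Il2rg was also below WT in HDC-KO bone marrow, against the same WT arrays, but did not pass (-0.99, adjusted p = 0.0927, limma). Mcpt2, a mucosal mast cell protease, was called higher in STAT6-KO bone marrow (adjusted p = 0.00899, limma). Its signal was well above background on each of the 3 STAT6-KO arrays and none of the 4 WT arrays. The STAT6-KO arrays alone were enough to bring it into the fit. The WT values it was compared with were not well above background, so the size of the difference is uncertain. Other mast cell genes, Mcpt1, Mcpt4, Mrgprb2, Tpsb2, and Tpsg1, differed there by 0.14, 0.12, 0.30, 1.06, and 1.27, and none passed by limma. Kit, Cpa3, and Fcer1a, which belong to the same marker list, went the other way, at -0.11, -0.53, and -0.18, and did not pass either. Eosinophil markers, from the granulocyte lineage nearest to basophils, had positive differences for 7 of 7 in STAT6-KO in both tissues. Of these, 2 of 7 passed in bone marrow (Il5ra and Ear6) and 0 in spleen, against 4.61% and 1.95% of all genes. Their summed signal ranged from 5.54 to 9.28 in WT spleen and from 10.2 to 21.9 in STAT6-KO spleen. In HDC-KO bone marrow, against the same WT arrays, all but Il5ra (-0.17) were positive too, and none passed by limma. Prg2 was at 1.12 (adjusted p = 0.111, limma) and Ear6 at 0.67 (adjusted p = 0.0863, limma). The summed signal there, from 11.8 to 22.4, lay above every WT bone marrow array. In HDC-KO spleen the differences lay on both sides of 0, from -1.01 (Epx) to 0.85 (Ccr3).

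After MI, the lowest bone marrow levels of 7 of the 9 genes, all but Il4 and Kit, lay at 1 week in both WT and HDC-KO, the genotypes with an array at that time. The limma F test over MI 1, 2, and 4 weeks against control passed for 0 of 9 genes in bone marrow, where 0% of all genes passed, and 7 of 9 had an unadjusted p under 0.05, against 20.9%. At MI 1 week against control all 9 differences were negative, with a median of -0.77 (all genes 0.06), and 6 of 9 had an unadjusted p under 0.05 and were lower, against 8.1% of all genes. None passed after adjustment, where 0.148% of all genes did.

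In WT bone marrow Gata2 was at -1.57, -3.24, -1.55, and -1.03 in control and at MI 1, 2, and 4 weeks. In HDC-KO it was at -1.68, -2.60, -1.24, and -0.89, so that the MI 1 week array was the lowest and the MI 4 weeks array the highest in both genotypes. Gata2 at MI 1 week differed from control by -1.16 (SE 0.24, adjusted p = 0.0977, limma), and at MI 4 weeks by 0.91 (SE 0.21, adjusted p = 0.0965, limma). Mcpt8 differed by -1.40 at MI 1 week (SE 0.31, adjusted p = 0.106, limma), with 0.85 in control and -0.98 at MI 1 week in WT, and 1.20 and -0.10 in HDC-KO. Cpa3 was at -0.06 and -2.05 in WT and at 0.11 and -0.77 in HDC-KO, a difference of -1.23 in the fit that did not pass (adjusted p = 0.155, limma). The other 6 differences at MI 1 week lay between -1.16 (Ms4a2) and -0.12 (Il4). Without the WT MI 1 week array that comparison rests on 1 HDC-KO array. All 9 differences were then negative, with a median of -0.62 (all genes 0.06), and 2 of 9 had an unadjusted p under 0.05, against 6.36% of all genes lower in that fit. Those were Gata2 at -0.90 (adjusted p = 0.411, limma) and Mcpt8 at -1.01 (adjusted p = 0.438, limma), while Cpa3 was at -0.68. Without the WT arrays, 2 of the 9 genes had an unadjusted p under 0.05 in the F test, and without the WT MI 1 week array alone 3 did.

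Markers of other cells moved at the same time in bone marrow. At MI 1 week none of the lists passed, and the medians were -2.39 for 4 B cell markers, -1.18 for 3 erythroid markers, -1.21 for 4 progenitor markers, and 0.50 for Itgam and Ptprc. The summed B cell signal was 1.57 in WT and 4.72 in HDC-KO at MI 1 week, and between 12.2 and 25.8 on the other WT and HDC-KO bone marrow arrays. Without the WT MI 1 week array, a comparison that rests on 1 HDC-KO array, other lists were low too. The medians were then -1.41 for 4 megakaryocyte markers and -0.93 for 4 NK cell markers, beside -1.94 for B cell, -0.75 for progenitor, and -0.48 for erythroid markers. Those of neutrophil and eosinophil markers were positive, at 0.29 and 0.27. The part of these cells in the lower levels was not tested.

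In spleen the limma F test over time also passed for 0 of 9, against 19.2% of all genes, and 3 of 9 had an unadjusted p under 0.05 (Prss34, Fcer1a, and Gata2), against 37.2%. The MI arrays lay mostly above control at 2 weeks, where 7 of 9 differences were positive with a median of 0.98 (all genes -0.13) and 5 of 9 had an unadjusted p under 0.05, against 23.7%. None passed after adjustment, where 2.25% of all genes did. Prss34 at MI 2 weeks differed by 1.65 (SE 0.44, adjusted p = 0.0868, limma), with -3.21 in control and -0.82 at MI 2 weeks in WT, and -3.70 and -2.59 in STAT6-KO. Fcer1a differed by 1.33 (SE 0.37, adjusted p = 0.0912, limma), and Ms4a2 by 1.63 (adjusted p = 0.176, limma). The lowest of the 9 differences at MI 2 weeks was that of Kit, -0.66. At MI 1 week the median was 0.29 and 1 of 9 had an unadjusted p under 0.05 (27.4% of all genes), and at MI 4 weeks the median was 0.79 and 2 of 9 did (8.7%). At MI 1 week 4 of 5 T cell markers were lower in spleen, against 6.27% of all genes, with a median of -1.57, and their part in these levels was not tested. Without the WT MI 1 week array 0 of 5 T cell markers passed by limma, as did 0 of all genes, 4 of 5 had an unadjusted p under 0.05, and their median was -1.60, while the median of the 9 genes was 0.52. With normexp 0 of 9 had an unadjusted p under 0.05 in the F test, and without the WT MI 1 week array 2 did. For these F-test counts, and for the alternative ones in bone marrow above, no share of all genes is given. HDC-KO had no spleen control array, so its spleen arrays bear on time only through the differences among MI time points. The levels on all arrays are drawn by time.

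**Figure D3:**
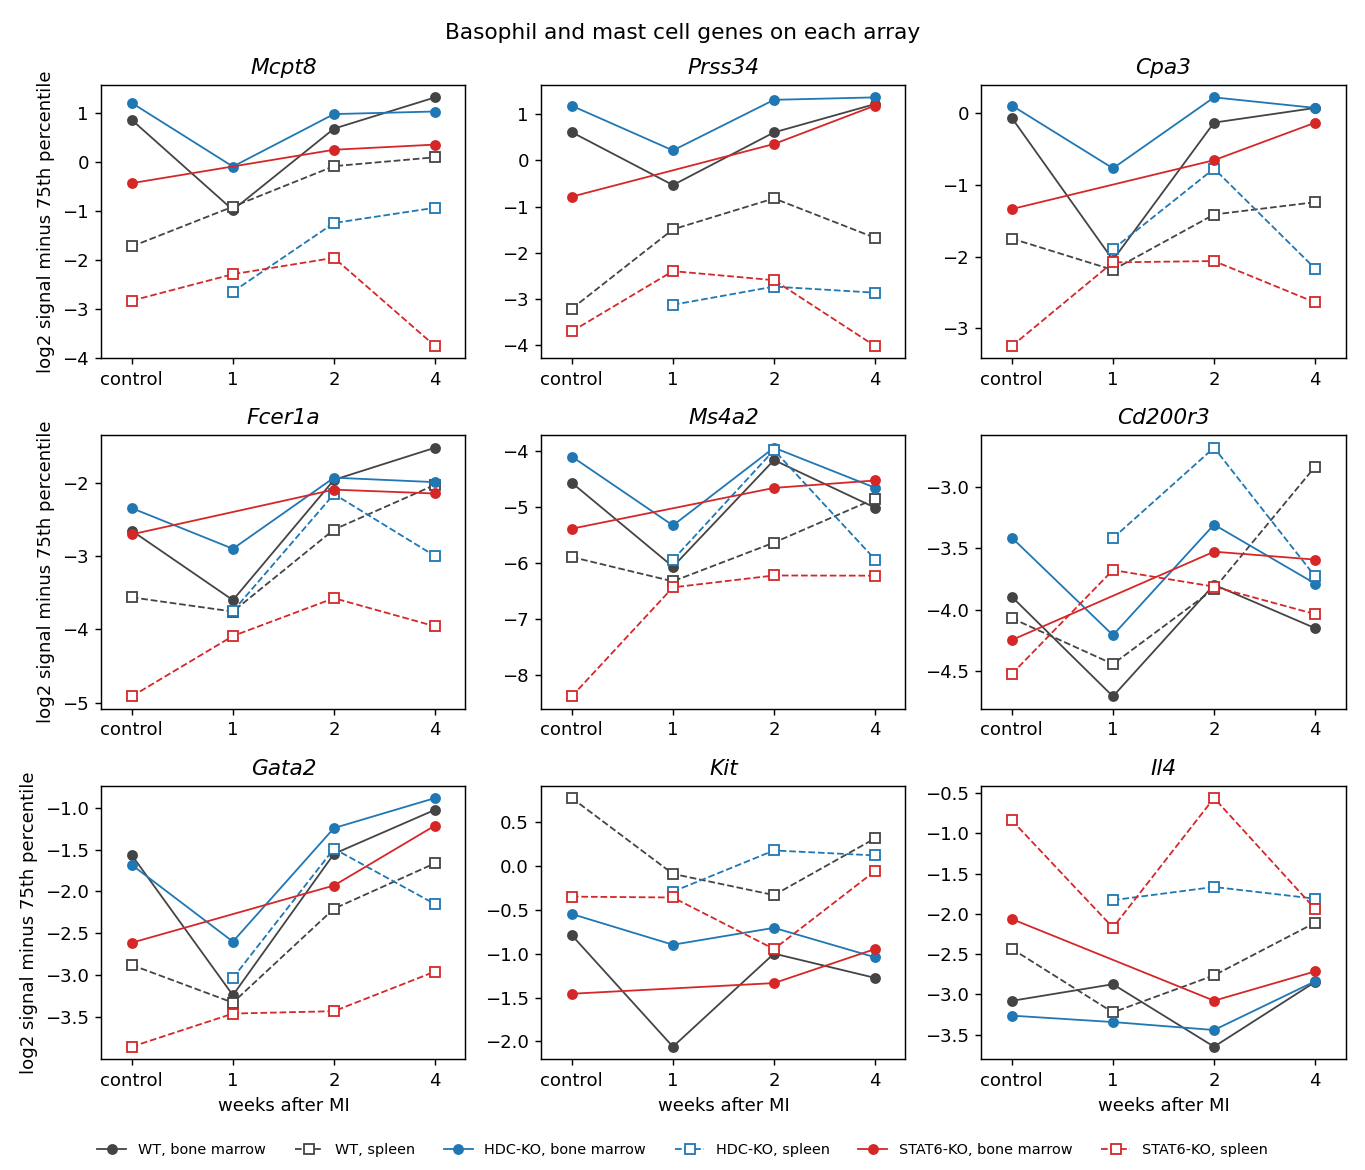
Level of each gene (log2 signal minus the 75th percentile of the array) against weeks after MI, with 1 point per array, filled circles for bone marrow and open squares for spleen, coloured by genotype. The bone marrow MI 1 week arrays were the lowest of their genotype for Mcpt8, Cpa3, and Gata2, and the STAT6-KO spleen arrays lay lowest for Mcpt8 and Fcer1a at MI 2 and 4 weeks.

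The genes were also compared with each other across arrays, as a description. The arrays share pools, slides, and the tissue difference, so r within a tissue is given beside r over all 22 arrays. Over 16652 genes with a symbol, the 5 most like Mcpt8 were Prss34 (r = 0.93), Myb (0.91), Fam71b (0.89), Egfl7 (0.89), and Cpa3 (0.89). Within tissues Mcpt8 and Prss34 had r = 0.85 in spleen and 0.89 in bone marrow, while Mcpt8 and Myb had 0.94 and 0.55. The 5 most like Gata2 were Fcer1a (0.94), Cpa3 (0.90), Bmp4 (0.89), Ms4a2 (0.87), and Rapgefl1 (0.85). Gata2 and Fcer1a had r = 0.95 in spleen and 0.89 in bone marrow, each over 11 arrays, while Gata2 and Prss34 had 0.35 and 0.91. Mcpt8 and Il4 had r = -0.71 over all arrays, and -0.44 in spleen and -0.39 in bone marrow. Mcpt8 and Kit had r = -0.40 over all arrays, 0.26 in spleen, and 0.74 in bone marrow.

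**Figure D4:**
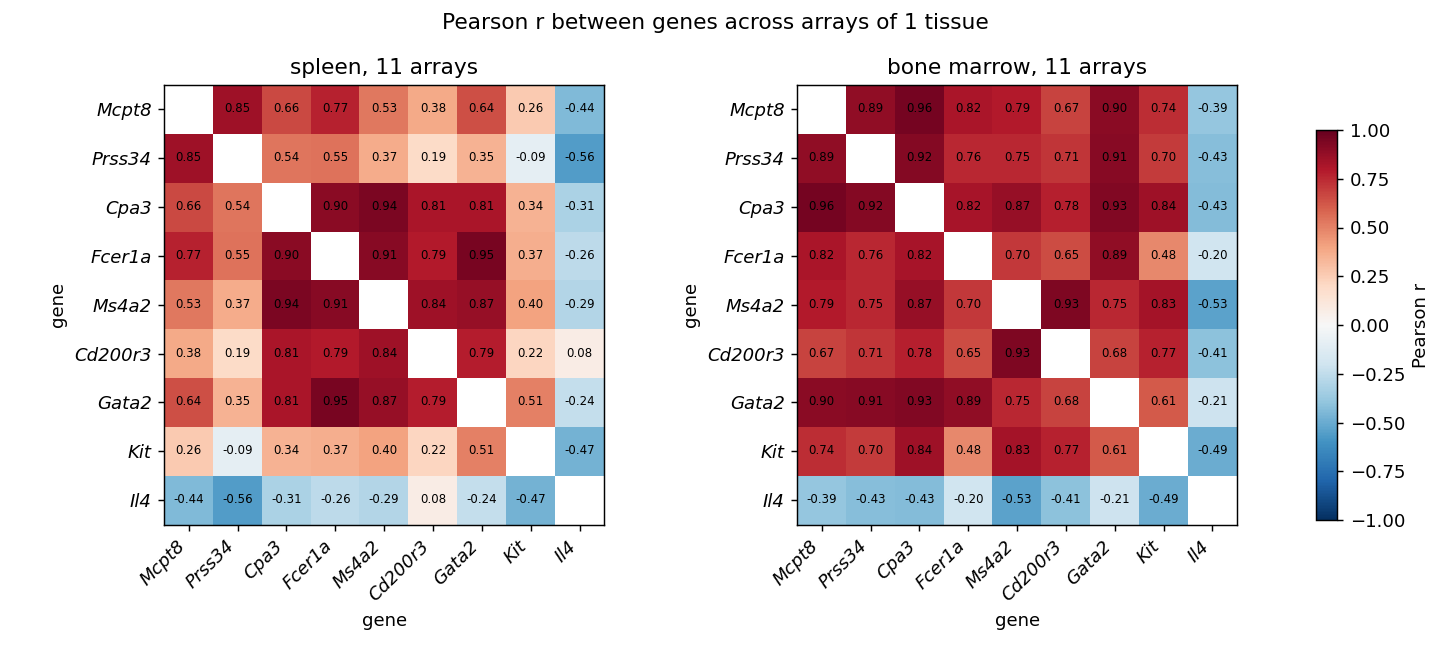
Pearson r between each pair of the 9 genes across the 11 spleen arrays (left) and the 11 bone marrow arrays (right), with the value printed in each square. In bone marrow 8 genes had positive r with each other and Il4 had negative r with all of them, and in spleen Prss34 and Kit had r = -0.09.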

How the data were processed

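RNA of CD11b+ cells was hybridised by the authors to 1-colour Agilent mouse arrays and read with Agilent Feature Extraction 11.0.1.1. The deposited values used here are spot intensities on the linear scale, background-subtracted and not scaled between arrays. The submitters' processing notes name GCRMA and the study names Genespring, and no output of either was used.

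Of 43020 spots that were not controls on each of 22 complete arrays, 3055 outlier spots in all were left out and 0 were saturated. Probes were named through RefSeq accessions, and 27234 of 39429 matched a symbol. Log2 signals had the 75th percentile of their array subtracted. A gene entered a fit if its probe was well above background on at least 2 of the arrays fitted, which all 9 genes did. For a gene with several probes the one with the highest mean was used. Fits used limma 3.58.1 in R 4.3.3 over all genes, with Benjamini-Hochberg adjustment and a threshold of 0.05. Genotype was fitted within each tissue (11 arrays) beside time point, time was tested in that same model, and the tissue fit had the pair as a block. Interaction terms were fitted on all 22 arrays. With 1 array per condition, the error is the variation of an effect between time points or genotypes, and the number of arrays limits the precision. p-values therefore say nothing of the spread between mice. Exact sign-flip tests were two-sided, over pairs, which they take as independent although pairs shared slides. The methods' t-test (Student) used fold over 2 and p under 0.05. Fits were tested on simulated data. Plots used matplotlib 3.10.9 in Python 3.11.15.

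The 9 genes and the gene lists were chosen with earlier results of these data known. All 9 were counted in each comparison and named or covered by a range or median, and of the other lists at most 4 genes past the threshold per list and comparison, with exceptions given. The 5 genes most like Mcpt8 and Gata2 were ranked by Pearson r over 22 arrays. Tpsab1, Ly6g, Cd68, and Hbb-b1 were not matched under these names. Alternatives covered scaling, background correction (normexp, offset 50, on the median signal), filters, probes, blocks, the arrays fitted, and leaving out each time point, genotype, or pair. Removing the WT MI 1 week arrays was added after seeing the data. Shares over all genes stand beside the main fits, and beside alternatives only where printed.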

Additional observations from a re-analysis of the deposited data

Results flagged for a closer look

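Of 27 sets of 4 or 10 paired differences (each gene between a knockout and WT, or between tissues), 2 had a pair far from the rest by Dixon's criterion. That criterion marks about 1 in 20 sets by chance, so 2 of 27 is close to what it gives, and sets of one gene share the WT arrays. In bone marrow, HDC-KO minus WT for Kit was 1.16 at MI 1 week and the next value was 0.29, and WT MI 1 week was the array with the lowest Kit level. HDC-KO minus WT for Cd200r3 in bone marrow was 0.36 at MI 4 weeks, next to 0.48, all 4 pairs being positive. Prss34 had an HDC-KO effect in spleen that differed from the one in bone marrow by -1.97 on the log2 scale, with every spleen pair below 0 and every bone marrow pair above it. The limma test of that difference gave an adjusted p of 0.0665.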

How the results depend on the processing

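Of 136 alternative counts of genes past the threshold, 127 equalled the given one or lay within 1.5 times of it. For spleen against bone marrow the count was 7 or 8 under every alternative run, 7 where Ms4a2 failed a stricter filter on background. The exceptions were all counts given as 0. For time after MI in spleen the count was 2 with median scaling, 1 with genes well above background on every array, and between 0 and 2 when each genotype was left out (2 without STAT6-KO). For time in bone marrow it was 1 with that stricter filter. For HDC-KO against WT in spleen it was 2 with those 2 genotypes alone and between 0 and 1 when each time point was left out (1 without control). For STAT6-KO against WT in spleen it was 2 with the methods' t-test before adjustment and between 0 and 1 without a time point (1 without control). For the HDC-KO difference between tissues it was also between 0 and 1 (1 without control). The cause was not tested. Counts over all genes moved more. HDC-KO against WT in spleen had 742 calls, 3 with normexp, 2606 with 2 genotypes alone, and 38 without the WT MI 1 week array, and STAT6-KO 517, 4, 144, and 68. In bone marrow HDC-KO had 120, 56, 20, and 34, and STAT6-KO 1248, 512, 0, and 1001. The tissue differences of the knockout effects had 229 and 1444 calls, and 0 and 67 with normexp. Time in spleen had 5082, and 0 with normexp or without the WT arrays. Scaling moved the median of all genes by over 0.1 in some fits. In HDC-KO against WT in spleen it was 0.06 as given and -0.10 with median scaling, and in STAT6-KO against WT in spleen -0.06 as given and 0.27 with normexp. The tissue fit without the pair block, and with slide as a random block, gave 8 again.

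Signs turned only where the value missed the threshold in the fit given. For HDC-KO against WT in spleen, Ms4a2 was -0.18 with quantile normalization, -0.074 with median scaling and -0.17 without the WT MI 1 week array, and Gata2 was -0.0027 with median scaling and -0.019 without that array. Kit there was 0.010 with the percentile over detected probes and 0.037 with 2 genotypes alone, and Cpa3 0.00065 with 2 genotypes alone. By the methods' t-test, with or without adjustment, Cpa3 was 0.034 and Fcer1a 0.028. Leaving out each time point in turn gave, in HDC-KO spleen, -0.46 to 0.26 for Cpa3, -0.52 to 0.13 for Fcer1a, -0.14 to 0.45 for Gata2, -0.33 to 0.052 for Kit, and -0.64 to 0.66 for Ms4a2. It gave -0.55 to 0.11 for Cd200r3 in STAT6-KO spleen, -0.044 to 0.35 for Fcer1a and -0.22 to 0.011 for Il4 in HDC-KO bone marrow, and -0.039 to 0.43 for Cd200r3, -0.35 to 0.15 for Kit, and -0.59 to 0.069 for Ms4a2 in STAT6-KO bone marrow. With normexp, Ms4a2 was 0.55 and Cd200r3 0.45 in STAT6-KO spleen. In HDC-KO bone marrow Fcer1a was -0.026, Ms4a2 -0.15, Gata2 -0.0054, and Cd200r3 -0.014, and Cd200r3 was -0.047 in STAT6-KO bone marrow and -0.046 between tissues. In STAT6-KO bone marrow, by the methods' t-test, Fcer1a was 0.12, Ms4a2 0.094, and Kit 0.035. Without the WT MI 1 week array, Fcer1a was -0.044 and Il4 0.011 in HDC-KO bone marrow.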
